A study of Homo sapiens with 24 samples.

Results

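The genes described here are 45 regulators of pre-mRNA splicing, chosen by name from the 60675 genes in the count files. They are 12 SR proteins (SRSF1 to SRSF12), the SR-like pair TRA2A and TRA2B, 19 members of the hnRNP and polypyrimidine tract binding families, 9 further regulators, several of them restricted to certain cell types (ESRP1, ESRP2, RBFOX2, MBNL1, MBNL2, MBNL3, CELF1, QKI and KHDRBS1), and the core splicing factors SF3B1, SF3B2 and U2AF2. The rule names genes and uses no measured value. The RNA came from the prostate cancer (PCa) cell lines LNCaP:C4-2, a castration-resistant derivative of LNCaP, and 22Rv1, a line grown from a prostate cancer xenograft. Cells of both lines, held in medium with charcoal-stripped serum, were transfected with siRNAs that target METTL3 (siMETTL3), the enzyme that writes the m6A mark on RNA, or with control siRNAs that target no gene (siSCR). A second transfection followed after 48 h, and the cells then spent 72 h with ethanol (vehicle) or with 1 nM of R1881, a synthetic androgen. Each of the 8 combinations of line, siRNA pool and treatment was sequenced as 3 libraries, 24 in all. The siRNA pools lower METTL3 without removing it, each line is 1 established culture, and no source used here says whether the 3 libraries came from separate cultures, so that p-values measure the spread between these libraries only.

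SR proteins carry an arginine and serine rich domain. They bind exonic enhancer sequences and recruit the U1 particle and the U2AF heterodimer to nearby splice sites. hnRNPs bind nascent transcripts and often oppose the use of the sites they cover, and the balance of the opposing families sets which exons are kept. METTL3 is linked to them through m6A readers, among them HNRNPC and HNRNPA2B1, and the epithelial regulators ESRP1 and ESRP2 are lost when epithelial cells take on a mesenchymal state. Gene counts report how much mRNA of each regulator was present. They do not show splicing itself.

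The libraries held 15716224 to 21306019 counted fragments, and the 45 genes took 0.868% to 1.33% of them. Levels are given as CPM (counts normalised to library size with TMM factors), where 3 counts, taken as the smallest readable signal, equalled 0.141 to 0.191 CPM. Intervals and floors of this kind cover counting error only. METTL3 fell in all 4 knockdown comparisons, by 0.57 to 1.18 on the log2 scale, although in LNCaP:C4-2 the call was lost in 3 of 6 fits (vehicle) and 5 of 6 fits (R1881) that left out 1 library. FKBP5, an androgen-induced gene, rose with R1881 in both lines under both siRNA pools, by 3.21 to 3.49, and KLK3, another, rose by 4.08 and 3.93 in LNCaP:C4-2 and did not pass in 22Rv1. The luminal markers KRT8, KRT18, HOXB13, FOLH1 and EPCAM were all present in both lines, whereas the 3 basal markers together reached at most 1.03 CPM and the 3 leukocyte markers 1.62 CPM. The fibroblast list summed to 38.6 to 72 CPM in LNCaP:C4-2 and 16.5 to 32.8 CPM in 22Rv1, nearly all of it from COL1A1, the endothelial list reached 12.6 CPM in LNCaP:C4-2 through VWF, and the neuroendocrine list summed to 78.3 to 121 CPM in 22Rv1 through SYP. The part of these genes in the results was not tested. The libraries called here ones that stood apart were 4, chosen after seeing the data as those farthest from both others of their own group over all genes: LNCaP:C4-2 siSCR R1881 number 1 and siMETTL3 vehicle number 1, and 22Rv1 siSCR vehicle number 3 and siMETTL3 vehicle number 1. Their counts differed from those of their group mates by a chi-square of 11.8 to 41.7 per degree of freedom, compared with 3.05 to 4.11 between the mates. The choice was one of degree. In LNCaP:C4-2, siSCR vehicle library 3 differed from its mates by 10.3 and 10.7, where these differed by 3.35, and siMETTL3 R1881 libraries 2 and 3 differed by 14, and these libraries were kept. Results that rest on the 4 are given with and without them, beside the share of all genes called in the same fit.

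Levels between genes were compared per length, as FPKM (CPM per kilobase of exon). In vehicle-treated siSCR cells HNRNPA1, an abundant silencer-binding hnRNP, ranked first in both lines, with a mean of 236 FPKM in LNCaP:C4-2 and 249 FPKM in 22Rv1 and a coefficient of variation of 8.30% and 7.26% over the 3 libraries. HNRNPK and HNRNPA2B1 followed within the top 4 of both lines, at 163 and 118 FPKM in LNCaP:C4-2 and at 142 and 149 FPKM in 22Rv1. The lower end of the order held MBNL3, QKI and PTBP2, the PTB paralogue of neurons, at 1.92, 1.90 and 1.45 FPKM in LNCaP:C4-2 and 2.51, 2.05 and 2.32 FPKM in 22Rv1. HNRNPA1 has 74 named pseudogenes in the annotation, HNRNPA3 16 and HNRNPC 9. Fragments that matched several places were not counted, so the levels of these genes are uncertain. Within a group, the median coefficient of variation of the members ran from 3.17% (22Rv1, siSCR, R1881) to 12% (LNCaP:C4-2, siMETTL3, vehicle), and the groups with a library that stood apart had medians of 6.37% to 12%.

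The first comparison was between the lines without androgen and without knockdown. Among the members, 2 were read in 22Rv1 alone. MBNL2, a muscleblind protein that drives exon choice in nervous tissue, and SRSF12, an SR protein of restricted expression, were read in 22Rv1 and were at or below the floor in LNCaP:C4-2. MBNL2 lies on the plus strand of chromosome 13 of GRCh38 from 97221434 to 97394120. Its counts in the 12 LNCaP:C4-2 libraries were 0 to 2, and in the 12 libraries of 22Rv1 they were 427 to 730. In vehicle and siSCR this was 25.9, 27.8 and 39.8 CPM in 22Rv1. Against the floor of 3 counts per library, MBNL2 was at least 183-fold higher in 22Rv1 in vehicle with siSCR. SRSF12, on the minus strand of chromosome 6 from 89095959 to 89118081, had 0 to 3 counts in LNCaP:C4-2 and 29 to 101 counts in 22Rv1. In vehicle and siSCR its level was 4.68, 4.39 and 4.53 CPM in 22Rv1, at least 26.7-fold above the floor. The 12 libraries of one line did not overlap with the 12 of the other for either gene. The 250 bases before a RefSeq start of each gene (GRCh38.p14), given here for the genes with the most different level in the lines, read 5′ to 3′ on the gene's strand as follows, with each CG dinucleotide in capitals.
MBNL2 (chr13:97222083-97222332, plus strand): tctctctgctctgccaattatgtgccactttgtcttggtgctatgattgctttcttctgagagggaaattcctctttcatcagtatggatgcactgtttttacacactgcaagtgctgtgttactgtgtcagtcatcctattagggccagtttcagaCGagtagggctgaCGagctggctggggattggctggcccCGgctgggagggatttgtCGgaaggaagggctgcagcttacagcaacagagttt
SRSF12 (chr6:89118072-89118321, minus strand): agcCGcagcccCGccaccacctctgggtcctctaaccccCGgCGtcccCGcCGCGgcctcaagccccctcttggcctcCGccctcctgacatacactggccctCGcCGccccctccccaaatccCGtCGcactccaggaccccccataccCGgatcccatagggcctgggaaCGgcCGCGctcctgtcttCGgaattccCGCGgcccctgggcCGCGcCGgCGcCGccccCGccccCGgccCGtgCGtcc
The MBNL2 window held 4 CG dinucleotides and the SRSF12 window 28. The median was 11 over 35116 RefSeq windows of this length and 24 over the 62 windows of the 38 members found in the table. The data hold no measurement of methylation or binding at these windows.

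Across all 45 genes, 35 passed the test between the lines, 20 higher and 15 lower in 22Rv1. To pass means here and below that the Benjamini-Hochberg adjusted p of edgeR, by its quasi-likelihood method, was under 0.05. The background was as wide, since 73.9% of all genes tested passed and 37.9% were higher. An offset for GC content left 31 members, 13 higher and 18 lower, a count given without the share of all genes. The members named next are therefore ones that kept call and direction under the offset. ESRP1, the epithelial splicing regulator, was 62.1, 62.7 and 64.8 CPM in LNCaP:C4-2 and 215, 242 and 251 CPM in 22Rv1. Each 22Rv1 library was above each LNCaP:C4-2 library, and the log2 fold change was 1.90 (SE 0.10, edgeR adjusted p = 2.58e-15). SRSF10, a splicing repressor when dephosphorylated, was 123, 114 and 133 CPM in LNCaP:C4-2 and 248, 247 and 297 CPM in 22Rv1 (log2 fold change 1.10, SE 0.12, edgeR adjusted p = 5.72e-09). PTBP3, a paralogue of the pyrimidine tract binding protein PTBP1, was 124, 126 and 133 CPM in LNCaP:C4-2 and 237, 243 and 312 CPM in 22Rv1 (log2 fold change 1.05, SE 0.12). MBNL1, the main muscleblind protein outside the brain, was 132, 125 and 154 CPM against 229 to 293 CPM (log2 fold change 0.88, SE 0.11). None of these groups overlapped. RBFOX2 was 71.4, 77.0 and 75.5 CPM in LNCaP:C4-2 and 119, 124 and 126 CPM in 22Rv1 (log2 fold change 0.72, SE 0.08). PTBP2, at 18.3 to 19.3 CPM against 25.6 to 35.4 CPM, and TRA2B, at 182 to 192 CPM against 272 to 313 CPM, completed the 9 members that were at least 1.5-fold higher. Their log2 fold changes of 0.67 (SE 0.16) and 0.63 (SE 0.10) became 0.29 and 0.39 with the offset for GC content.

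The members that were lower in 22Rv1 were led by hnRNPs and a core factor. HNRNPA3, a paralogue of HNRNPA1, was 343, 339 and 320 CPM in LNCaP:C4-2 and 112, 119 and 123 CPM in 22Rv1. Its log2 fold change of −1.51 (SE 0.08, edgeR adjusted p = 8.44e-15) had no overlap between the groups. HNRNPF, which binds G-rich elements, was 481, 465 and 439 CPM in LNCaP:C4-2 and 205, 213 and 190 CPM in 22Rv1. U2AF2, the U2AF subunit that reads the polypyrimidine tract, was 392, 358 and 332 CPM against 190, 171 and 141 CPM. The log2 fold changes were −1.19 (SE 0.10) for HNRNPF and −1.11 (SE 0.16) for U2AF2, and neither gene had overlapping groups. SRSF8, a retrogene relative of SRSF2, was 159, 150 and 156 CPM in LNCaP:C4-2 and 82.7, 82.1 and 88.6 CPM in 22Rv1 (log2 fold change −0.88, SE 0.07). SF3B2, a subunit of the U2 particle, was 300 to 329 CPM against 170 to 201 CPM (−0.75, SE 0.08). SYNCRIP, at 267 to 293 CPM against 159 to 187 CPM (−0.71, SE 0.08), and SRSF2, at 147 to 177 CPM against 98.6 to 121 CPM (−0.62, SE 0.14), were the last of the 7 members at least 1.5-fold lower. Groups overlapped for none of these members, and at 1.5-fold 16 of 45 members passed, where 59.2% of all genes tested did. The plot of members by line shows these values in all 24 libraries.

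**Figure D1:**
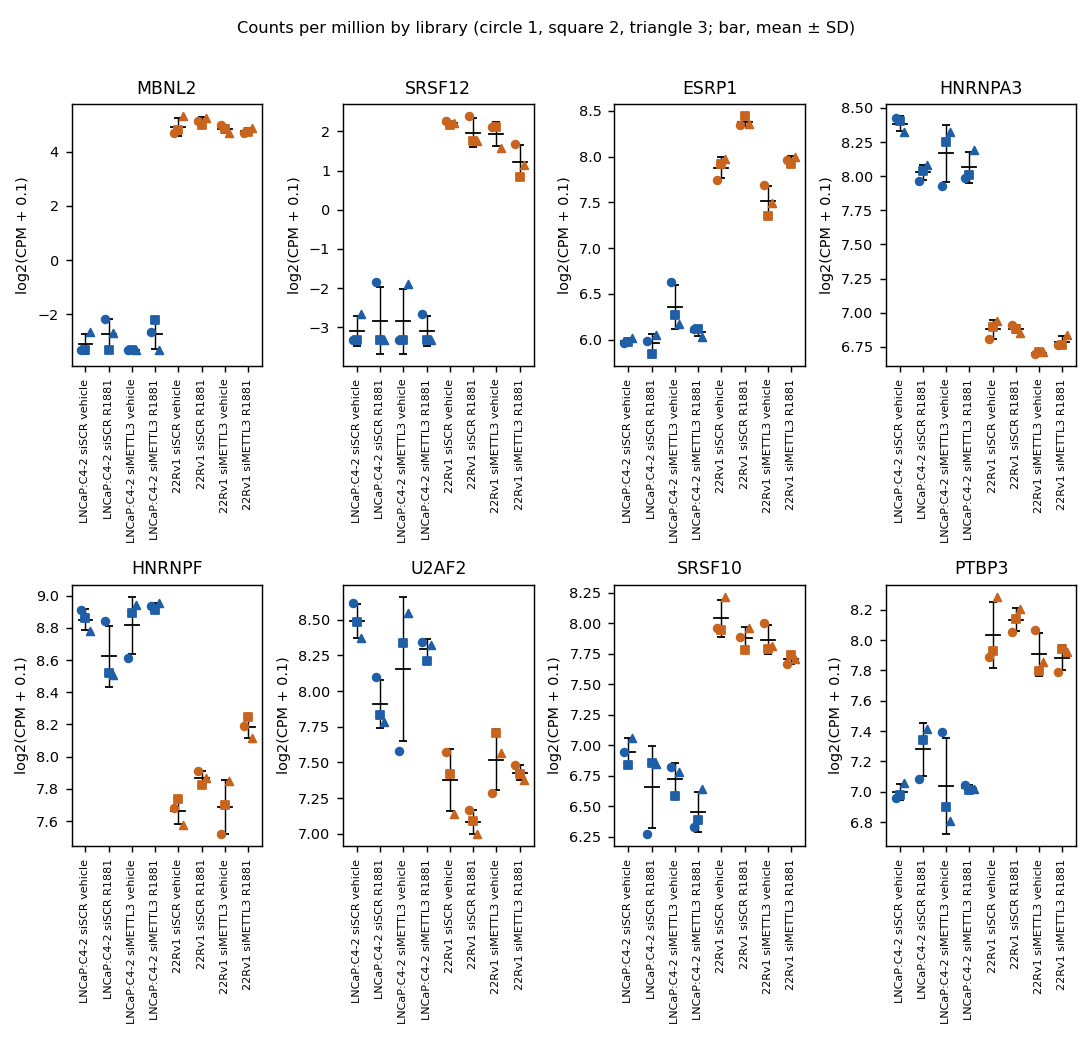
Log2(CPM + 0.1) of the 8 members with the largest differences between the lines, in each library of the 8 conditions (LNCaP:C4-2 in blue, 22Rv1 in orange, symbols mark library numbers 1 to 3, bars the mean ± SD of the log2 values). MBNL2 and SRSF12 sit near the bottom of the scale in all 12 LNCaP:C4-2 libraries, and the lines stay apart for all 8 genes in every condition except U2AF2, where 1 siMETTL3 vehicle library of LNCaP:C4-2 lies among those of 22Rv1.

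The second comparison asked how the splicing regulators respond to androgen in LNCaP:C4-2. With siSCR, a broad group of them was lower with R1881. Of the 43 members tested (MBNL2 and SRSF12 did not reach the filter on low counts), 17 fell and 2 rose. That is 39.5% lower, where 12.1% of all genes tested were lower, and 4.65% higher, where 12.7% of all genes were, out of 24.8% that passed in either direction. The median log2 fold change was −0.24 over the members and −0.03 over all genes tested. The hnRNPs contributed 11 of the 17 and the SR proteins 5, and U2AF2 was the other. Each of the 17 had no overlap between R1881 and vehicle libraries, and their log2 fold changes lay between −0.67 and −0.33. Members were called on these same libraries, so the lack of overlap is no separate support, here or in the other comparisons.

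HNRNPM, an hnRNP that binds GU-rich sites, fell most. It was 370, 355 and 352 CPM in vehicle and 216, 240 and 223 CPM with R1881, a log2 fold change of −0.67 (SE 0.15, edgeR adjusted p = 0.00446). All 3 R1881 libraries lay far below the 3 vehicle libraries. SRSF1, the founding SR protein and a known oncoprotein, was 215, 210 and 233 CPM in vehicle and 108, 165 and 155 CPM with R1881 (log2 fold change −0.63, SE 0.17, edgeR adjusted p = 0.0122). Its lowest value belonged to the R1881 library that stood apart, and the other 2 were still below every vehicle library. HNRNPH1, a partner of HNRNPF on G-rich elements, went from 452, 412 and 390 CPM to 230, 283 and 307 CPM, with a log2 fold change of −0.62 (SE 0.11, edgeR adjusted p = 0.000622). HNRNPDL, an AUF1-like protein, went from 186, 162 and 162 CPM to 98, 116 and 125 CPM (log2 fold change −0.60, SE 0.14, edgeR adjusted p = 0.00636). U2AF2 went from 392, 358 and 332 CPM to 274, 228 and 221 CPM (log2 fold change −0.59, SE 0.17, edgeR adjusted p = 0.0214), a call lost in 4 of the 6 fits that left out 1 library. HNRNPM, SRSF1, HNRNPH1, HNRNPDL and U2AF2 were the 5 members that fell by at least 1.5-fold, and none rose by that much, while 7.72% of all genes tested fell and 7.39% rose by this rule. SRSF2, the SR protein mutated in myeloid neoplasms, went from 166, 147 and 177 CPM to 81.8, 121 and 129 CPM, and fell by 0.57 on the log2 scale (SE 0.16, edgeR adjusted p = 0.0164). HNRNPD, also named AUF1, went from 283, 267 and 234 CPM to 178, 172 and 189 CPM, and fell by 0.55 (SE 0.15, edgeR adjusted p = 0.0151). HNRNPR, the paralogue of SYNCRIP, went from 182, 167 and 175 CPM to 126, 123 and 120 CPM, and fell by 0.52 (SE 0.10, edgeR adjusted p = 0.00107). For SRSF2, 36.7% of the exon length is shared with other genes, mostly MFSD11, and reads there were not assigned.

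The other members that fell were SRSF3, SRSF6, SRSF7, HNRNPA1, HNRNPA2B1, HNRNPA3, HNRNPK, HNRNPU and PTBP1, by 0.33 to 0.45 on the log2 scale. The exceptions to this direction were SRSF8, at 159, 150 and 156 CPM in vehicle and 205, 202 and 200 CPM with R1881, and CELF1, which binds GU-rich elements. SRSF8 rose by 0.38 on the log2 scale (SE 0.08, edgeR adjusted p = 0.00267). CELF1 rose by 0.24 (SE 0.08, edgeR adjusted p = 0.0469) but lost the call in each of the 6 fits that left out 1 library. Without the libraries that stood apart, all 17 members that fell still passed in the same direction, and 28 members passed in all (7 higher, 21 lower), where 37.8% of all genes tested passed in that fit. Leaving out vehicle library 3 left 16 members, where 20.8% of all genes tested passed. Leaving out vehicle library 1 reduced the calls to 10 of 43, 1 higher and 9 lower, where 16.4% of all genes tested passed. Of the 17 that fell, 9 passed in every fit with 1 library left out. The 15 proliferation genes moved with them: 12 fell, with a median log2 fold change of −0.55, and their summed level was 2726 to 3171 CPM in vehicle and 1712 to 2236 CPM with R1881. Markers of other cell types passed in this comparison as well, at low levels. PTPRC, of leukocytes, was 1.38, 1.18 and 1.62 CPM in vehicle and 0 in all 3 R1881 libraries, and SYP, of neuroendocrine cells, was 2.43, 1.83 and 1.68 CPM against 1.07, 0.905 and 0.950 CPM. VWF, of endothelium, was 2.98, 3.44 and 3.30 CPM against 6.22, 6.27 and 6.28 CPM, and KRT14, of basal cells, reached at most 0.0537 CPM in vehicle and 0.905 CPM with R1881. The part of all these genes in the change of the splicing regulators was not tested.

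**Figure D2:**
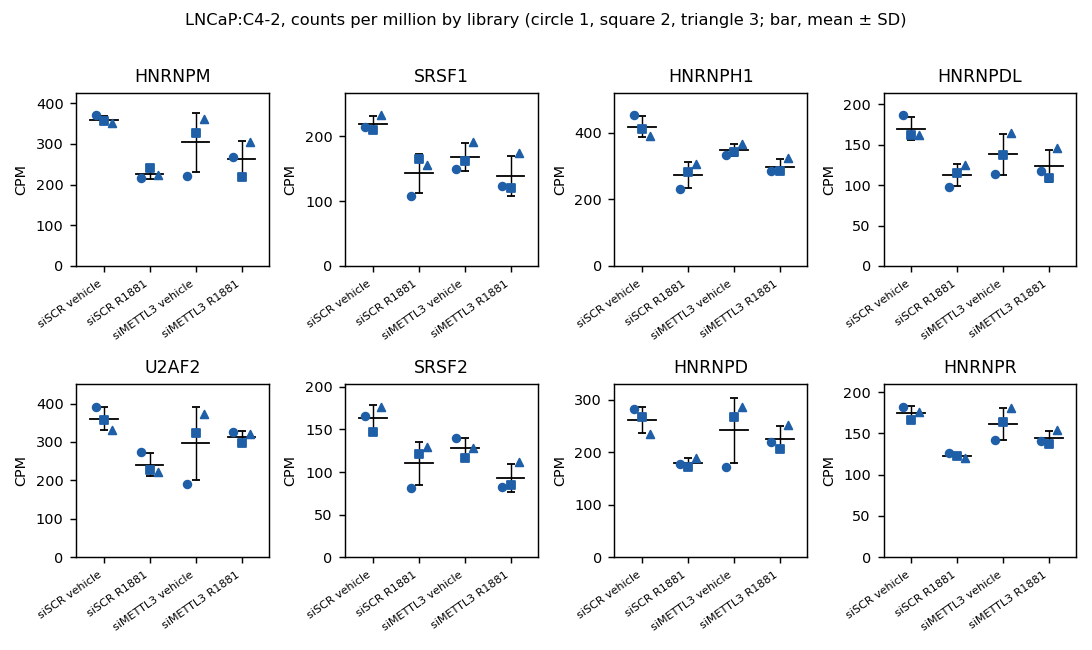
CPM of the 8 members with the largest R1881 changes in LNCaP:C4-2 with siSCR, by library in the 4 conditions of this line (circle, square and triangle mark library numbers 1 to 3, bars the mean ± SD, axes start at 0). With siSCR the R1881 libraries lie below the vehicle libraries for all 8 genes, and with siMETTL3 vehicle library 1 (circle) is the lowest of its group for 7 of the 8.

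The promoter windows of the members that fell were read for a pair of short motifs because the genes moved together. The E-box CACGTG, a palindrome and the site of MYC and related factors, occurred in the 250 bases before the start of 4 of the 15 such genes found in the RefSeq table (HNRNPA3, HNRNPD, HNRNPDL and HNRNPM), and of 5 of the 23 other members found there (HNRNPH2, HNRNPH3, KHDRBS1, MBNL1 and SF3B1). Over the members it was in 11 of 62 windows (17.7%), which belong to 9 genes, and over all RefSeq windows in 6.35%. The E-box itself contains a CG, and the member windows held a median of 24 CG dinucleotides against 11 over all windows. The rates were not matched for that difference. The hexamer AGAACA of the androgen response element, searched on both strands, was in 10 of the 62 windows (16.1%) and in 12.4% of all windows, and among the members that fell SRSF7 and HNRNPD had it. An E-box window of each of the 4 that fell is given below, 5′ to 3′ on the gene's strand in GRCh38.p14, with the E-box in capitals.
HNRNPM (chr19:8444725-8444974, plus strand): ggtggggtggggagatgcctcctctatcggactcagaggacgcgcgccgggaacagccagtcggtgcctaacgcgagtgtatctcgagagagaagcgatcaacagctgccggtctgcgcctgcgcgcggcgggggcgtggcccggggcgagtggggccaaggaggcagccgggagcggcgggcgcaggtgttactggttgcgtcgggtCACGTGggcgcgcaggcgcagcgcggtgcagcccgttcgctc
HNRNPA3 (chr2:177212544-177212793, plus strand): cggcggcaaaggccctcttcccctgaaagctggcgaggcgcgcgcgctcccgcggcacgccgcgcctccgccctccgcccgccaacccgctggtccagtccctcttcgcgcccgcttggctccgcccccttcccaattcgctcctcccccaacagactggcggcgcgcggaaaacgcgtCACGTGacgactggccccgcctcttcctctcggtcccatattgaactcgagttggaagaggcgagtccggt
HNRNPD (chr4:82373992-82374241, minus strand): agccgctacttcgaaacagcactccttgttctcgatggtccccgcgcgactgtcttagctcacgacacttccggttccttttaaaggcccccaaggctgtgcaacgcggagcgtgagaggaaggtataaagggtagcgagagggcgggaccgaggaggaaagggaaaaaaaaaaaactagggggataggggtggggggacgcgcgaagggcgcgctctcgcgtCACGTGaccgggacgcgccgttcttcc
HNRNPDL (chr4:82430226-82430475, minus strand): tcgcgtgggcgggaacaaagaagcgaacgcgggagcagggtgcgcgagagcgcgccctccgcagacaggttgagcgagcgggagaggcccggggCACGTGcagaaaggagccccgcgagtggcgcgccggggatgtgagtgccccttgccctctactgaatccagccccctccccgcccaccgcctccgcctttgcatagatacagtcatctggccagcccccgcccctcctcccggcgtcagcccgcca
The E-box began 42 bases before the start in HNRNPM, 71 in HNRNPA3, 27 in HNRNPD and 156 in HNRNPDL, where a second RefSeq start, not printed, had one 127 bases before it. HNRNPD and HNRNPDL are neighbours on the minus strand of chromosome 4, with 48060 bases between them. A match of letters does not show that a factor binds there, and binding was not measured.

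With siMETTL3, few members passed in the response of LNCaP:C4-2 to R1881. Of the 43 tested 3 members passed, all higher, where 16.6% of all genes tested passed, 8.51% higher and 8.09% lower. SRSF8 was 127, 131 and 137 CPM in vehicle and 197, 182 and 201 CPM with R1881 (log2 fold change 0.57, SE 0.08, edgeR adjusted p = 0.000107), with no overlap of the groups. ESRP2 was 54.8, 78.7 and 82.9 CPM in vehicle and 108, 101 and 111 CPM with R1881 (log2 fold change 0.58, SE 0.14, edgeR adjusted p = 0.00734). CELF1 was 310, 270 and 271 CPM in vehicle and 330, 362 and 323 CPM with R1881, rose by 0.27 (SE 0.08), and lost the call in 5 of 6 fits that left out 1 library. None of the 17 members that fell with siSCR passed here, and their log2 fold changes ran from −0.45 to 0.10, with 15 of 17 below 0.

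This difference between the siRNA pools was not established by its own test. The interaction of R1881 and siMETTL3 passed for 0 of 43 members and for 0% of all genes tested with edgeR, and DESeq2 passed 0 of the members and 55 of 34664 genes, while 10 members had an unadjusted p under 0.05 with edgeR. Of these, 9 were among the 17 that fell, and the other was HNRNPF. The 17 were picked by their siSCR response, which the interaction subtracts, so this overlap was partly set by the choice. Unadjusted p-values were counted for members only, here and below, with no share of all genes. The largest interaction was that of U2AF2, 0.69 on the log2 scale (SE 0.25, edgeR adjusted p = 0.358), and HNRNPM had 0.49 (SE 0.22, edgeR adjusted p = 0.388). In simulated data this test recovered 2% of changes of 0.5 and 45% of changes of 1, so the absence of calls does not show equal responses. One library weighs on this comparison. In siMETTL3 vehicle cells HNRNPM was 221, 328 and 361 CPM, U2AF2 192, 323 and 374 CPM and HNRNPD 171, 266 and 287 CPM, and the low value was each time that of library 1, which stood apart over all genes. Without the libraries that stood apart, 17 members passed with siMETTL3 (4 higher, 13 lower), 12 of the 17 that fell with siSCR among them, where 24.3% of all genes tested passed in that fit. The interaction then passed for 1 member, U2AF2, at 0.53, and for 1.31% of all genes tested.

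**Figure D3:**
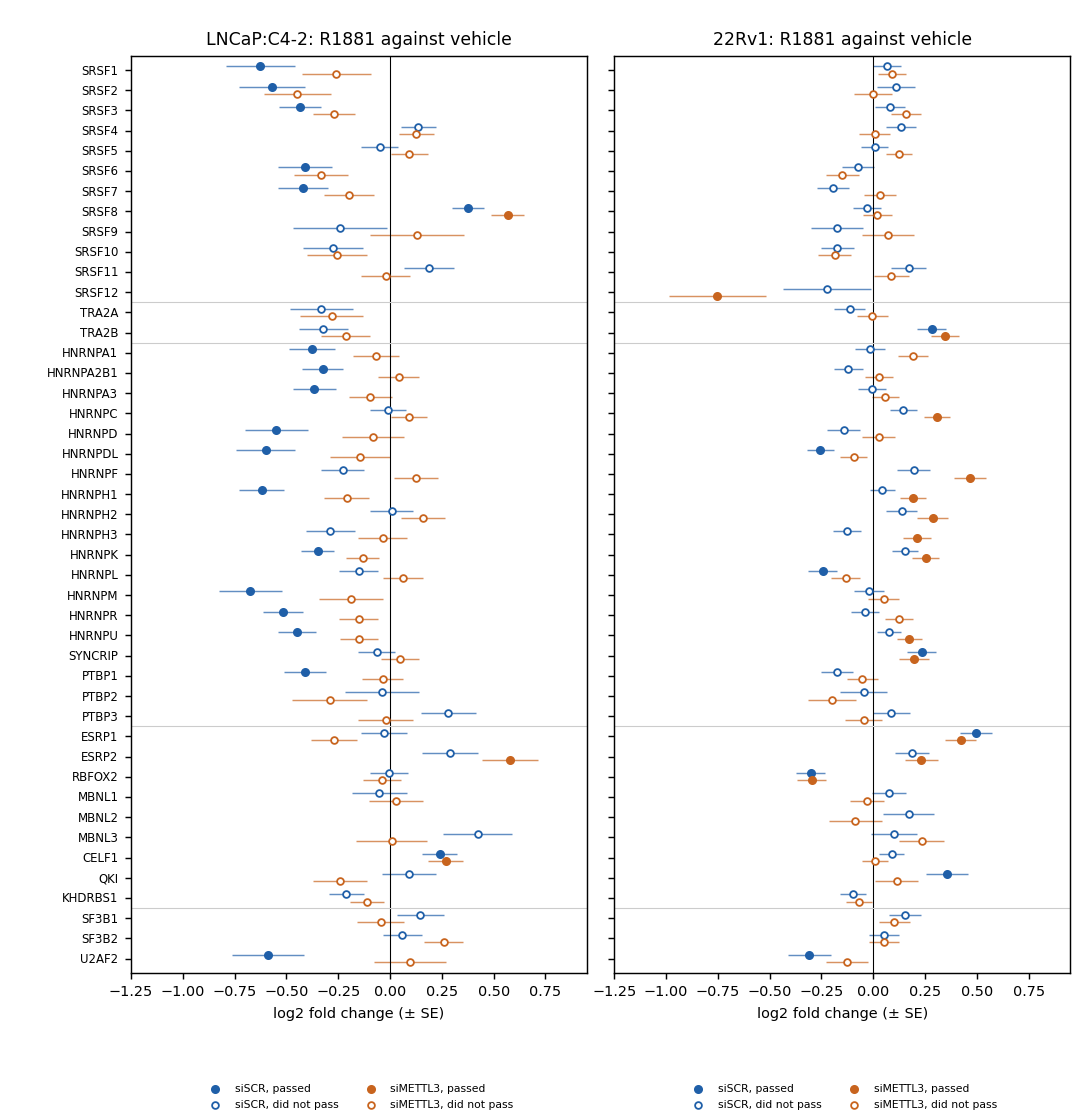
Log2 fold change of R1881 against vehicle (± SE) for the members in each line, with siSCR in blue and siMETTL3 in orange, filled where the edgeR adjusted p was under 0.05. In LNCaP:C4-2 the 17 filled blue points below 0 stand beside open orange points, and in 22Rv1 the changes lie between −0.75 and 0.50.

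In 22Rv1 the splicing regulators responded to R1881 in both directions. With siSCR 8 of 45 members passed, 4 higher and 4 lower, or 17.8% in all. Among all genes tested 16.6% were higher and 16.5% lower. ESRP1 rose most. It was 215, 242 and 251 CPM in vehicle and 326, 347 and 327 CPM with R1881, a log2 fold change of 0.50 (SE 0.08, edgeR adjusted p = 3.21e-05) that passed in all 6 fits with 1 library left out. TRA2B, an SR-like protein that binds GAA-rich enhancers, was 272, 290 and 313 CPM in vehicle and 349, 350 and 369 CPM with R1881 (log2 fold change 0.28, SE 0.07, edgeR adjusted p = 0.00335). QKI, which binds ACUAA elements and promotes circular RNA formation, was 33.9, 32.9 and 39.9 CPM in vehicle and 45.4, 49.4 and 42.1 CPM with R1881 (log2 fold change 0.35, SE 0.10, edgeR adjusted p = 0.0098). RBFOX2, the GCAUG-binding regulator, was 119, 124 and 126 CPM in vehicle and 105, 101 and 94.3 CPM with R1881, and fell by 0.30 (SE 0.07, edgeR adjusted p = 0.00212). The groups did not overlap for any of these. HNRNPDL, at 219 to 223 CPM in vehicle and 178 to 190 CPM with R1881, and HNRNPL, which binds CA repeats, at 284 to 320 CPM and 252 to 263 CPM, fell by 0.26 (SE 0.07) and 0.25 (SE 0.07). SYNCRIP, at 159 to 187 CPM in vehicle and 200 to 207 CPM with R1881, rose by 0.23 (SE 0.07). U2AF2 was 190, 171 and 141 CPM in vehicle and 144, 136 and 128 CPM with R1881, and fell by 0.31 (SE 0.10) with overlapping groups. With an offset for GC content 15 members passed, 5 higher and 10 lower, where 38.9% of all genes tested passed. SYNCRIP and U2AF2 lost their calls under it, and TRA2B and QKI kept theirs at 0.18 and 0.23. One library decided much of the count: without vehicle library 3, which stood apart, 17 members passed, 10 higher and 7 lower, where 39.2% of all genes tested passed, and 26 passed (16 higher, 10 lower), where 45.5% of all genes did, without both libraries of 22Rv1 that stood apart.

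With siMETTL3, 13 members of 45 passed in 22Rv1, 11 higher and 2 lower, or 28.9% where 33.1% of all genes tested passed, 16.8% higher and 16.3% lower. The hnRNPs made up 8 of those that rose. HNRNPF was 183, 208 and 230 CPM in vehicle and 292, 304 and 277 CPM with R1881 (log2 fold change 0.47, SE 0.08, edgeR adjusted p = 9.47e-05). HNRNPC, a nuclear m6A reader that binds uridine tracts, was 592, 617 and 655 CPM in vehicle and 764, 797 and 782 CPM with R1881 (log2 fold change 0.31, SE 0.06, edgeR adjusted p = 0.00075). All 3 R1881 libraries of both genes were above the vehicle libraries. HNRNPH2 was 74.7, 83.6 and 85.5 CPM in vehicle and 103, 99.4 and 99.6 CPM with R1881, and rose by 0.29 (SE 0.07) on the log2 scale. HNRNPK, a poly(C)-binding hnRNP, was 663, 673 and 721 CPM in vehicle and 812, 832 and 843 CPM with R1881, and rose by 0.25 (SE 0.06). HNRNPH3, SYNCRIP, HNRNPH1 and HNRNPU rose by 0.17 to 0.21. ESRP1 rose again, from 206, 163 and 180 CPM to 249, 242 and 256 CPM (log2 fold change 0.42, SE 0.08), as did TRA2B by 0.35 (SE 0.07), from 235 to 268 CPM to 316 to 344 CPM. ESRP2 rose by 0.23 (SE 0.08). RBFOX2 fell by 0.30 (SE 0.07), from 117 to 124 CPM to 93.1 to 105 CPM, as it had with siSCR. SRSF12 fell from 4.22, 4.24 and 2.87 CPM to 3.11, 1.67 and 2.11 CPM, the only change of at least 1.5-fold, where 13.5% of all genes tested met that rule (log2 fold change −0.75, SE 0.24, edgeR adjusted p = 0.0173), with overlapping groups. With the offset for GC content 14 passed, 8 higher and 6 lower, where 41.7% of all genes tested did. HNRNPU, HNRNPH1 and SYNCRIP were then at 0.10 to 0.12. Without R1881 library 3, 7 passed, where 25.5% of all genes tested did. Without the libraries that stood apart 21 passed, 17 higher and 4 lower, where 39.9% of all genes tested passed. The interaction passed for 0 of 45 members with edgeR (0.0168% of all genes tested) and for 0 of them with DESeq2 (3 of 37522 genes), and 3 members had an unadjusted p under 0.05. The largest of these was that of HNRNPH3, 0.34 (SE 0.10, edgeR adjusted p = 0.802).

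The responses of the lines to R1881 were then set against each other in a fit of all 24 libraries. With siSCR the difference passed for 13 of 45 members, 28.9% where 16.8% of all genes tested passed. The response was higher in 22Rv1 for 12 of them, where 7.78% of all genes tested differed in that direction and 9.02% in the other. The SR proteins were SRSF1, SRSF2 and SRSF3, with differences of 0.69 (SE 0.18), 0.68 (SE 0.19) and 0.51 (SE 0.12) on the log2 scale. In 22Rv1 SRSF1 was 217, 220 and 256 CPM in vehicle and 239, 241 and 247 CPM with R1881, so that the groups overlapped where those of LNCaP:C4-2 had not. The hnRNPs were HNRNPH1, HNRNPM, HNRNPU, HNRNPK, HNRNPR, HNRNPF and HNRNPA3, with differences from 0.66 for HNRNPH1 to 0.36 for HNRNPA3. In 22Rv1 HNRNPH1 was 411, 417 and 398 CPM in vehicle and 419, 411 and 439 CPM with R1881. HNRNPU, a scaffold attachment factor, was 685, 712 and 685 CPM in vehicle and 737, 742 and 724 CPM with R1881, where in LNCaP:C4-2 it went from 602 to 640 CPM to 434 to 476 CPM. HNRNPM was 358, 368 and 332 CPM in vehicle and 346, 352 and 350 CPM with R1881 in 22Rv1, against the fall in LNCaP:C4-2 given above.

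TRA2B and ESRP1 differed in another way. TRA2B was 191, 182 and 192 CPM in vehicle and 126, 158 and 170 CPM with R1881 in LNCaP:C4-2, which did not pass (log2 fold change −0.32, SE 0.12), and it rose in 22Rv1, a difference of 0.60 (SE 0.13, edgeR adjusted p = 0.00225). ESRP1 stayed near 63 CPM in LNCaP:C4-2 (log2 fold change −0.03, SE 0.11) and rose in 22Rv1, a difference of 0.52 (SE 0.14, edgeR adjusted p = 0.00943). SRSF8 was the one member with the opposite sign. It rose in LNCaP:C4-2 and was 82.7, 82.1 and 88.6 CPM in vehicle and 84.3, 84.6 and 80.3 CPM with R1881 in 22Rv1, a difference of −0.41 (SE 0.10, edgeR adjusted p = 0.004). The count was 10 to 13 in the fits that left out 1 library and 17 without the libraries that stood apart, where 20.8% of all genes tested passed. With the offset for GC content 16 members passed, 12 higher and 4 lower, and the same offset ended the calls of HNRNPA3 and HNRNPR. The counts with the offset and with 1 library left out are given without the share of all genes. They are therefore not read as a result about the members.

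**Figure D4:**
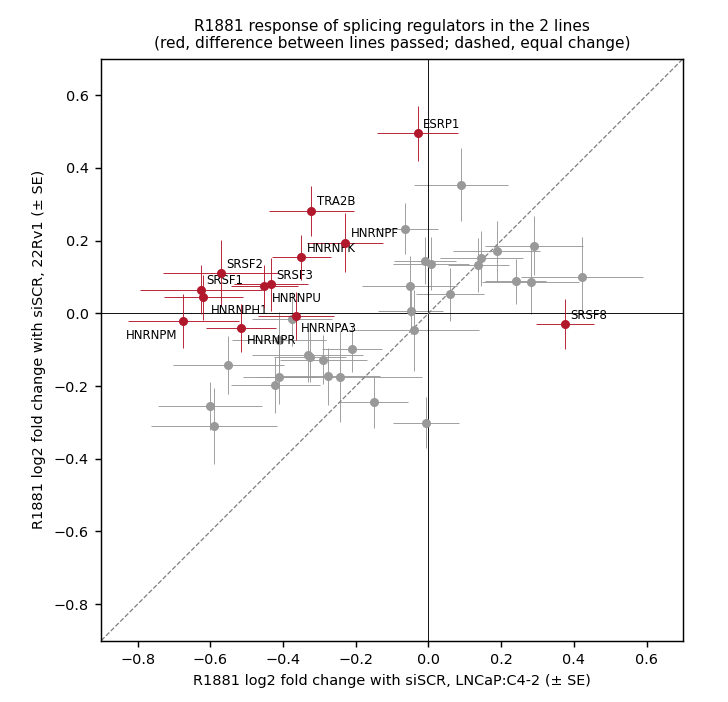
Log2 fold change of R1881 against vehicle with siSCR in LNCaP:C4-2 (x) and 22Rv1 (y), ± SE, for the 43 members tested in both lines. Red points are the 13 members whose difference between the lines passed, 12 of them above the dashed line of equal change and SRSF8 below it.

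The knockdown comparisons asked which members changed when METTL3 was lowered, with and without androgen. In LNCaP:C4-2 few did. In vehicle 1 of 43 members passed, where 1.56% of all genes tested did. This was SYNCRIP, also named HNRNPQ, an mRNA-binding protein of nucleus and cytoplasm, at 282, 267 and 293 CPM with siSCR and 227, 206 and 212 CPM with siMETTL3 (log2 fold change −0.40, SE 0.09, edgeR adjusted p = 0.0389). The groups did not overlap, but the call was lost in 5 of 6 fits with 1 library left out. With R1881, 0 of 43 members passed with edgeR, where 0.937% of all genes tested did. DESeq2 called 3, where 4.66% of all genes tested passed, and 9 had an unadjusted p under 0.05 with edgeR. Without siSCR R1881 library 1, which stood apart, 11 members passed, 3 higher and 8 lower, where 21% of all genes tested did. Without all libraries that stood apart 7 passed in vehicle (1 higher, 6 lower), where 15.7% of all genes tested did, and 21 with R1881 (11 higher, 10 lower), where 38.7% did. SYNCRIP had −0.29 (SE 0.09) with R1881, and the largest value there was that of SRSF9, 0.65 (SE 0.23), neither of which passed.

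In 22Rv1 ESRP1 fell with siMETTL3 in both treatments. In vehicle ESRP1 was the 1 member that passed, where 0.560% of all genes tested did. It was 215, 242 and 251 CPM with siSCR and 206, 163 and 180 CPM with siMETTL3 (log2 fold change −0.36, SE 0.08, edgeR adjusted p = 0.0287). Each siMETTL3 library was below each siSCR library, and the call was lost in 4 of 6 fits with 1 library left out. Without siMETTL3 vehicle library 1, which stood apart, 5 members passed, where 6.72% of all genes tested did, and 6 without both such libraries of 22Rv1, where 6.11% did. With R1881 ESRP1 was 326, 347 and 327 CPM with siSCR and 249, 242 and 256 CPM with siMETTL3 (log2 fold change −0.44, SE 0.08, edgeR adjusted p = 0.00161), and this call held in all 6 such fits. ESRP1 was thus higher with R1881 and lower with siMETTL3 in this line, in comparisons that share libraries. A fall of ESRP1 was not seen in LNCaP:C4-2, where neither knockdown comparison passed for it. In vehicle it was 62.1, 62.7 and 64.8 CPM there with siSCR and 99.0, 77.4 and 72.1 CPM with siMETTL3. With R1881 it was 63.4, 57.3 and 66.1 CPM with siSCR and 69.2, 69.5 and 65.3 CPM with siMETTL3.

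With R1881, 16 of 45 members passed in 22Rv1, 7 higher and 9 lower, or 35.6% where 16.2% of all genes tested passed, 8.93% higher and 7.28% lower. The count was 3 to 8 when any 1 of the 6 libraries was left out, where 4.38% to 10.3% of all genes tested passed. The directions shifted with the scaling, to 13 higher and 3 lower with the offset for GC content and to 7 higher and 6 lower with RLE size factors. In these fits 14.85% and 16.04% of all genes tested passed. The count was 28 (15 higher, 13 lower), where 31.9% of all genes tested passed, without the vehicle libraries that stood apart, which enter this comparison only through the shared fit. The members that kept both call and direction under the GC offset were SRSF2, SRSF9, HNRNPD, HNRNPF, HNRNPH2, HNRNPH3, ESRP1 and QKI. SRSF9, an SR protein, was 100, 94.4 and 96.7 CPM with siSCR and 151, 141 and 140 CPM with siMETTL3 (log2 fold change 0.55, SE 0.13, edgeR adjusted p = 0.00725). It passed in all 6 fits with 1 library left out, but 46.2% of its exon length is shared with GATC, and it had the widest spread of the members in 3 groups. QKI was 45.4, 49.4 and 42.1 CPM with siSCR and 30.8, 32.4 and 37.5 CPM with siMETTL3 (log2 fold change −0.46, SE 0.10, edgeR adjusted p = 0.00642).

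Among the hnRNPs, HNRNPF rose by 0.30 (SE 0.08), HNRNPD by 0.30 (SE 0.08, and by 0.47 with the GC offset), HNRNPH2 by 0.26 (SE 0.07) and HNRNPH3 by 0.26 (SE 0.07) on the log2 scale, and SYNCRIP fell by 0.27 (SE 0.07). For HNRNPF the siSCR libraries had 241, 226 and 233 CPM and the siMETTL3 libraries 292, 304 and 277 CPM, and for HNRNPD they had 160 to 168 CPM and 194 to 215 CPM, in both cases apart. Of the 9 further regulators, 4 fell and 1 rose. MBNL2 fell by 0.37 (SE 0.13, from 31.5 to 38.3 CPM to 26 to 29.7 CPM), MBNL1 fell by 0.27 (SE 0.08), ESRP1 and QKI fell as above, and ESRP2 rose by 0.28 (SE 0.08). SRSF12 had the largest change, from 5.12, 3.28 and 3.30 CPM to 3.11, 1.67 and 2.11 CPM (log2 fold change −0.79, SE 0.24, edgeR adjusted p = 0.0293), and was the 1 member at 1.5-fold, where 3.29% of all genes tested met that rule. U2AF2 rose by 0.33 (SE 0.10), from 128 to 144 CPM to 166 to 179 CPM, and SRSF6, SRSF2 and PTBP3 fell by 0.26 to 0.27. The calls of SRSF6, SRSF12, SYNCRIP, PTBP3, ESRP2, MBNL1, MBNL2 and U2AF2 ended under the GC offset. The interaction with R1881 did not pass for any of these genes, so a larger response to the knockdown with R1881 than in vehicle was not shown for them.

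**Figure D5:**
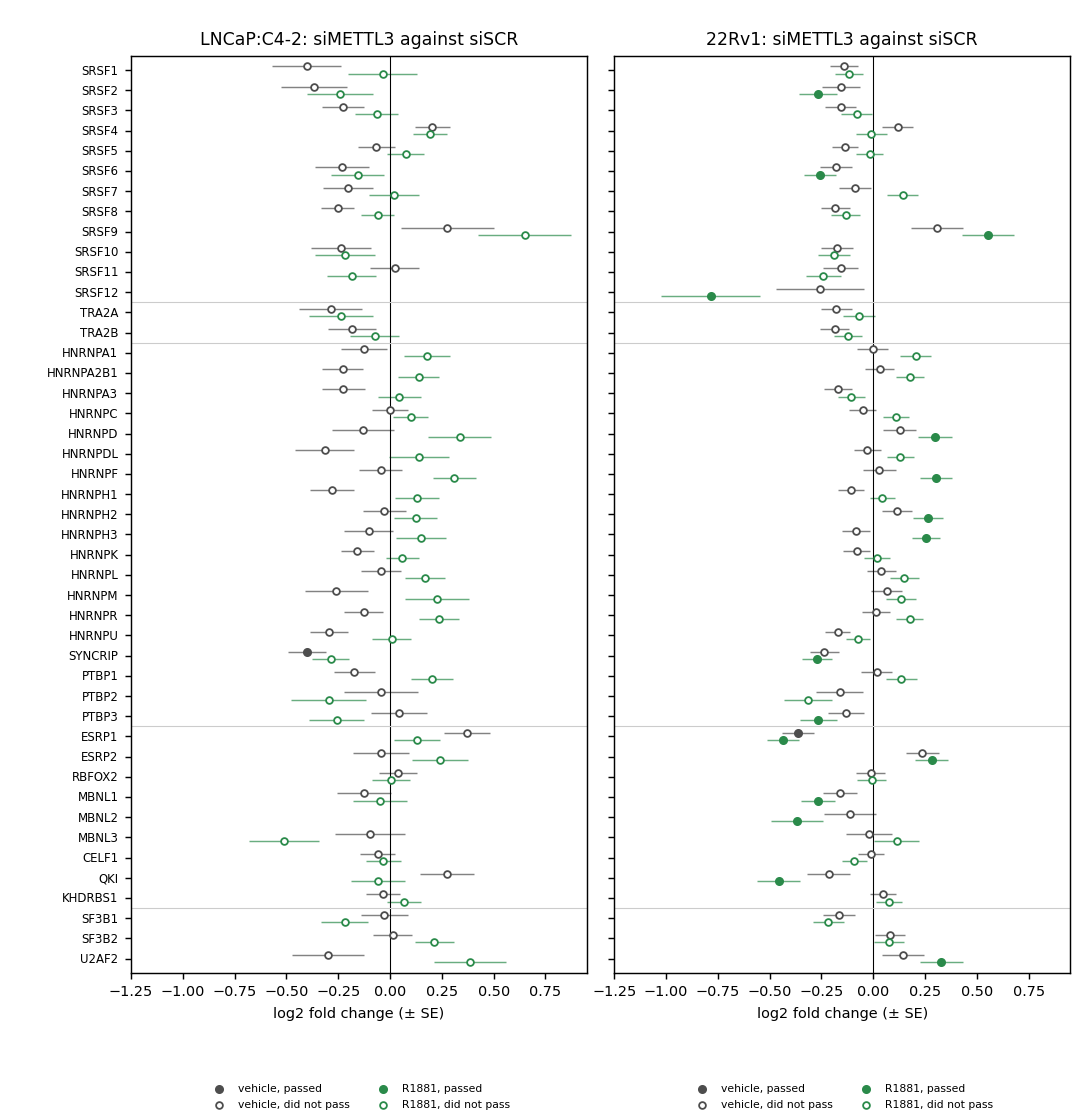
Log2 fold change of siMETTL3 against siSCR (± SE) for the members in each line, in vehicle (grey) and with R1881 (green), filled where the edgeR adjusted p was under 0.05. SYNCRIP is the 1 filled point in LNCaP:C4-2, and in 22Rv1 1 grey and 16 green points are filled.

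The genes that act on or with these regulators were read in the same fits, as lists. SR proteins are phosphorylated by the SRPK and CLK kinases. CLK1, a nuclear SR kinase, rose with R1881 in both lines under both siRNA pools, by 0.85 (SE 0.17) and 0.51 (SE 0.17) with siSCR and siMETTL3 in LNCaP:C4-2 and by 0.32 (SE 0.09, and 0.20 with the GC offset) and 0.25 (SE 0.09) in 22Rv1. The calls with siMETTL3 were lost in 4 of 6 fits that left out 1 library in either line. With siMETTL3 it fell in 22Rv1 by 0.45 (SE 0.09) in vehicle and 0.51 (SE 0.09, and 0.34 with the GC offset) with R1881. SRPK1, the cytoplasmic kinase that sends SR proteins to the nucleus, rose with R1881 in 22Rv1 by 0.52 (SE 0.07) with siSCR and 0.43 (SE 0.07) with siMETTL3, and fell by 0.37 (SE 0.07) with siMETTL3 under R1881. Of the 11 kinases listed, 2 rose and 0 fell with R1881 and siSCR in LNCaP:C4-2, the other being CLK3 at 0.54 (SE 0.13), and 3 rose and 2 fell in 22Rv1. Among all genes tested 12.7% rose and 12.1% fell in LNCaP:C4-2 in that comparison, and 16.6% rose and 16.5% fell in 22Rv1, and the same shares apply to the lists that follow.

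Of the 40 proteins of the spliceosome core, 24 were lower and 2 higher in 22Rv1 in vehicle with siSCR, led by SF3A3, EFTUD2 and PRPF6 at −1.21, −1.15 and −1.13, where 73.9% of all genes tested passed and 37.9% were higher. With R1881 and siSCR, 6 fell and 2 rose in LNCaP:C4-2, led by PRPF3, SF1 and SF3B3 at −0.50, −0.45 and −0.42, and 10 rose and 3 fell in 22Rv1, where SF3B6 and SNRPB2 rose by 0.47 and 0.45. The difference between the lines passed for 10 of the 40, all with the higher response in 22Rv1, where 7.78% of all genes tested differed in that direction. Of the 35 other RNA-binding proteins, 10 of the 32 tested fell and 0 rose in LNCaP:C4-2 with siSCR, among them KHDRBS3 by 1.25 (SE 0.34, means under 3 CPM) and RBFOX3, at a mean of 0.812 CPM in vehicle and 0.104 CPM with R1881, and 6 fell and 1 rose in 22Rv1. Of the 10 genes of nonsense-mediated decay, which degrades the poison-exon transcripts of many SR genes, 3 fell and 1 rose in LNCaP:C4-2. SMG9 fell by 0.70 (SE 0.15) there and by 0.38 (SE 0.11) in 22Rv1. In the knockdown with R1881 in 22Rv1, 8.93% of all genes tested rose and 7.28% fell. There 5 core proteins rose and 1 fell, led by SNRNP70 at 0.51 (SE 0.12, and 0.22 with the GC offset). PRPF31 and SNRPA, next in size at 0.46 and 0.32, lost their calls under that offset, at 0.25 and 0.13. In the same comparison 5 other RNA-binding proteins rose. Among them were PCBP4 at 0.56 (SE 0.12, and 0.32 with the GC offset) and HNRNPAB at 0.54 (SE 0.12, and 0.40 with the GC offset).

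Over the 12 comparisons, 44 of the 45 members passed at least once, and SRSF5 passed in none, with log2 fold changes between −0.14 and 0.14. The share of all genes that passed at least once was not counted. The line comparison alone passed 73.9% of all genes tested, so the 44 are no result about the members. ESRP1 passed in 6 comparisons and SYNCRIP in 5, more than any other member, in comparisons that share libraries. In LNCaP:C4-2 with siSCR the sum of all 45 genes was 11540 to 12200 CPM in vehicle and 9824 to 10130 CPM with R1881, without overlap. With siMETTL3 these ranges were 9869 to 11560 and 10120 to 11050 CPM, which overlapped. In 22Rv1 they were 11850 to 12090 and 12120 to 12440 CPM with siSCR, and 11290 to 11810 and 12430 to 12850 CPM with siMETTL3. Both pairs were without overlap but in the other direction. The most abundant members, HNRNPA1 first, weigh most in such a sum. Whether the cells held fewer transcripts of a gene or the library held fewer cells of a kind cannot be told apart in bulk RNA.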

How the data were processed

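RNA of 24 libraries was sequenced, 3 for each of 8 conditions, and the deposited files give raw fragment counts per gene. Per the file headers and the methods of the authors, reads were trimmed with Trim Galore and cutadapt, aligned to GRCh38 with STAR and counted with featureCounts 1.5.0 against Ensembl release 83, without regard to strand and without fragments that matched several places or several genes. Losses of that kind lower the counts of genes with close copies or shared exons. Gene names were found for 56558 of 60675 identifiers, and RefSeq promoter windows for 38 of the 45 members.

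The tests used edgeR 4.0.16 in R 4.3.3 (quasi-likelihood, TMM, filterByExpr), fitted over all genes with 1 mean per condition in the 12 libraries of a line, or in all 24 for comparisons of lines, with Benjamini-Hochberg adjustment over all genes tested. The tests were checked on simulated data. CPM, FPKM, sums and motif counts came from Python 3.11.15 with pandas 2.3.3. Samples were grouped by their labels. The alternatives were DESeq2 1.42.0, RLE size factors, no filter, at least 10 counts in every library, a 1.5-fold threshold, a replicate block and each library left out. An offset for GC content and a fit without the 4 libraries that stood apart were chosen after seeing the data. The members and gene lists were chosen with earlier results of these data known. Values per library are given for up to 8 members a comparison, those that passed with the largest change, and for members changed by 1.5-fold, others by range, and up to 3 genes of each other list are named. No column of the files held the authors' own comparisons. Some genes of the marker and RNA-binding protein lists are not reported here.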

Additional observations from a re-analysis of the deposited data

Results flagged for a closer look

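The response to R1881 with siSCR differed between the lines for 13 members, by the test of the difference itself (22Rv1 minus LNCaP:C4-2, log2 scale, edgeR adjusted p under 0.05 over all genes tested). The SR proteins had differences of 0.689 (SRSF1), 0.680 (SRSF2), 0.510 (SRSF3) and −0.408 (SRSF8), and the SR-like TRA2B had 0.602. Among the hnRNPs the differences were 0.662 for HNRNPH1, 0.653 for HNRNPM, 0.525 for HNRNPU, 0.501 for HNRNPK, 0.473 for HNRNPR, 0.421 for HNRNPF and 0.357 for HNRNPA3. ESRP1 had 0.521. The calls of HNRNPA3 and HNRNPF were lost in 11 and 9 of the 12 fits that left out 1 library, that of SRSF2 in 3, and those of SRSF1 and ESRP1 in 1 each, while the other 8 kept theirs in all 12. In LNCaP:C4-2 the summed level of the 15 proliferation genes moved with the change (2726 to 3171 CPM in vehicle, 1712 to 2236 CPM with R1881), in 22Rv1 it was 2366 to 2624 and 2459 to 2694 CPM, and its part in the difference was not tested.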

How the results depend on the processing

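Numbers of members that passed are given in the order LNCaP:C4-2 R1881 with siSCR, R1881 with siMETTL3, knockdown in vehicle, knockdown with R1881 and interaction, the same 5 for 22Rv1, the line comparison and the difference of the responses. They were 19, 3, 1, 0 and 0, then 8, 13, 1, 16 and 0, then 35 and 13. With a 1.5-fold threshold they were 5, 0, 0, 0 and 0, then 0, 1, 0, 1 and 0, then 16 and 5. Of all genes tested, 15.11%, 10.63%, 1.199%, 0.6997% and 0% met that rule in LNCaP:C4-2. In 22Rv1 13.83%, 13.47%, 0.2015%, 3.286% and 0.01679% did, and 59.2% in the line comparison. Without a filter the knockdowns in LNCaP:C4-2 gave 2 and 4, where 2.293% and 6.459% of all genes tested passed. Its interaction gave 1 (1.013% of all genes) and the 22Rv1 vehicle knockdown 2 (1.229%). DESeq2 gave 4 and 3 for the LNCaP:C4-2 knockdowns (1.956% and 4.656% of all genes) and 3 for the 22Rv1 vehicle knockdown (0.7169%). The GC offset gave 5 for R1881 with siMETTL3 in LNCaP:C4-2 (24.77% of all genes) and 5 for the vehicle knockdown there (7.644%). For R1881 with siSCR in 22Rv1 the offset gave 15 (38.87%). It reversed 3 line differences that did not pass under it, those of SRSF11 (−0.063), HNRNPU (−0.135) and PTBP1 (0.027). Without the 4 libraries that stood apart the counts were 28, 17, 7, 21 and 1, then 26, 21, 6, 28 and 1, then 35 and 17. Of all genes tested, 37.81%, 24.31%, 15.73%, 38.67% and 1.311% then passed in LNCaP:C4-2, and 45.52%, 39.94%, 6.108%, 31.92% and 1.183% in 22Rv1. The cause of these shifts was not tested.

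With 1 library left out the counts ranged over 10 to 16, 2 to 4, 0 to 1, 0 to 11 and 0 to 0, then 6 to 17, 7 to 14, 0 to 5, 3 to 8 and 0 to 0, then 28 to 34 and 10 to 13. The 11 came without LNCaP:C4-2 siSCR R1881 library 1, where 21.02% of all genes tested passed. The 17 came without 22Rv1 siSCR vehicle library 3 (39.18% of all genes) and the 5 without 22Rv1 siMETTL3 vehicle library 1 (6.716%). Same-numbered libraries did not deviate together on average (mean correlation −0.017, −0.311 to 0.179, in LNCaP:C4-2 and −0.01, −0.214 to 0.139, in 22Rv1). No source used here says whether the numbers mark shared cultures or days, and these means cannot exclude it. The replicate block took the LNCaP:C4-2 vehicle knockdown from 1 to 0 and left the other counts within 1.5 times. The log2 fold changes that passed, of the members and of METTL3 itself, were 114. Of these, 110 kept call and direction with DESeq2, 105 with RLE, 108 without a filter and 104 with the block. With the GC offset 90 did so, and without the 4 libraries 113. With 1 library left out, 570 of 762 values kept both. Depth limits SRSF12 and MBNL2 in LNCaP:C4-2, at 0 to 3 counts.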
